A study of Homo sapiens with 15 samples.

Results

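Messenger RNA was compared between MCF-10A cells edited at NF1 with guide RNAs 1 and 2 together and MCF-10A cells edited with guide RNA 1 alone. Each group had 3 libraries, so 6 of the 15 libraries of the series belong to the comparison, and every gene that passed a filter on low counts (17457 of 60721 gene identifiers) was tested. The labels give the genotypes as NF1-g1 and NF1-g1/g2, call the libraries of a genotype biological replicates, and list no treatment. Both groups are edited at NF1, so no unedited cells take part in the contrast itself. The other 9 libraries are edited with guide 2 alone (NF1-g2), carry an empty vector, or are parental, with 3 libraries each. All cells were kept in the same medium with 10% horse serum, 20 ng/mL EGF, 0.5 µg/mL hydrocortisone, 100 ng/mL cholera toxin and 10 µg/mL insulin. Whether an edited line is a clone or a pool is not given in the sources used here, nor is the date of culture or of library preparation. If each line is a single isolate, a difference between the lines cannot be told apart from a difference between the guides.

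Neurofibromin, the product of NF1, stimulates RAS to hydrolyse its GTP and so switches RAS off. Loss of neurofibromin leaves more RAS in its active form and raises signalling through RAF, MEK and ERK. MCF-10A is a non-tumorigenic human mammary epithelial line with basal features: it forms sheets held by E-cadherin and desmosomes and rests on laminin, and it can shift between an epithelial and a mesenchymal programme in culture. A pair of guides at one gene can cut at separate sites, so a line made with both can carry other alleles than a line made with either.

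The 6 libraries held 46129559 to 78976917 counts each. A floor of 3 counts corresponded to 0.0380 to 0.0650 in counts-per-million units (CPM), and levels under it are treated as not detectable. Intervals and floors cover counting error only. The labels name the cells epithelial, but the 3 guide 1 libraries had 0.0191, 0.152 and 0.158 CPM of CDH1 (E-cadherin) and 0.153, 0.203 and 0.142 CPM of TP63, the factor that defines basal epithelium. KRT5, another basal marker, was at 625 to 1001 CPM in the same libraries. Guide 2 replicate 2 stood apart from its own group: its root-mean-square log2 distance to the other guide 2 libraries was 1.13. In the other 4 genotypes each library had a distance of 0.324 to 0.575 to its group. Guide 2 replicates 1 and 3 had 0.625 and 0.628, values that include their distance to replicate 2. Because the main fit estimates each gene's spread over all 15 libraries, that library enters the error of genes in this comparison although it is in neither group. Results that rest on it are given with it and without it. Within guide 1, replicate 3 differed from replicates 1 and 2 beyond sampling noise in 58.3% and 61.8% of genes, against 29.3% between replicates 1 and 2. Cell cycle genes were among those that differed, as described with those genes, but the difference was not confined to them.

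NF1 itself was lower with both guides. Its level was 43.6, 47.3 and 51.3 CPM in the guide 1 libraries and 28.9, 29.4 and 26.0 CPM in the libraries with both guides. The groups did not overlap, and the mean with both guides was 59.3% of the guide 1 mean (47.4 ± 3.9 against 28.1 ± 1.8 CPM, SD, n = 3 each). In the edgeR quasi-likelihood fit the log2 fold change was -0.77 (SE 0.0882, adjusted p 0.00411). NF1 passed the threshold on the adjusted p in all 22 other fits, with adjusted p from 8.65e-11 to 0.0427. The exact two-sided permutation test on CPM gave p = 0.1, the smallest value that 3 against 3 libraries allow over 20 arrangements. Neurofibromin RNA was therefore measured at 2 levels within edited cells, while guide 2 cells (27.0, 31.4 and 29.8 CPM) overlapped the range of the cells with both guides. Empty-vector and parental libraries ranged from 115 to 159 CPM. The gene lies on chromosome 17 from 31094927 to 31382116 (GRCh38, GENCODE 29), and a gene-level count does not show which allele or exon the reads came from.

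Across the transcriptome 48 of 17457 genes were called (0.275%), at an adjusted p under 0.05. Of these, 33 were higher with both guides (0.189% of genes tested) and 15 lower (0.0859%), and 46 of the 48 are protein coding. At an unadjusted p under 0.05 there were 2270 genes. The median log2 fold change over all tested genes was -0.0033. Scaling of the libraries sets this median near 0 by construction, so it cannot show whether a general shift existed. In all 48 called genes the 3 libraries of one group lay wholly above those of the other, which held for 28.6% of all tested genes. The called genes were selected for a difference between these libraries, so their separation is no further support. Absolute log2 fold changes were at least 1 in 37 of the 48. The count depended on single libraries: it was 5, 4 and 827 without guide 1 replicate 1, 2 or 3, 11, 7 and 8 without replicate 1, 2 or 3 of both guides, and 813 without guide 2 replicate 2. Leaving out guide 2 replicate 1 gave 23, empty-vector replicate 1 gave 27 and empty-vector replicate 2 gave 25. Of the 48, 4 genes (NF1, JAM3, C9orf64 and NUDT11) had an adjusted p under 0.05 in all 22 other fits, and NF1 alone of these had an absolute log2 fold change under 1. All 48 kept their direction in every fit. The plot of fold change against level shows where the called genes sit.

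**Figure D1:**
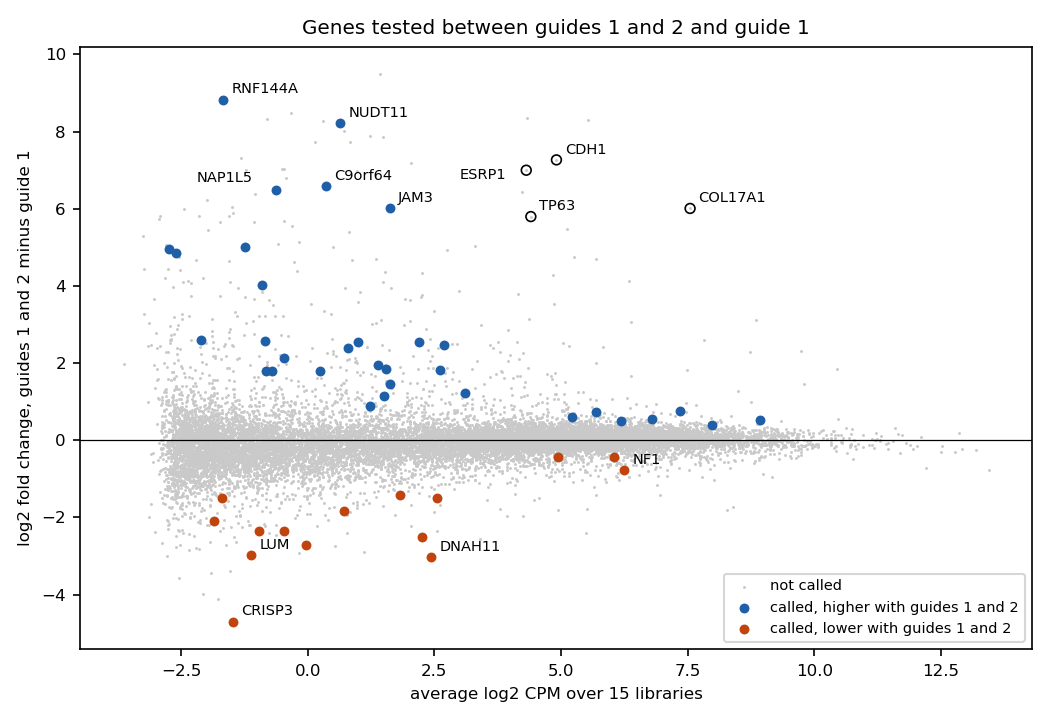
Each point is 1 of 17457 tested genes, with its average log2 CPM over the 15 libraries on the x axis and its log2 fold change (guides 1 and 2 minus guide 1) on the y axis. Blue points are the 33 genes called higher and orange points the 15 called lower; open circles mark CDH1, ESRP1, TP63 and COL17A1, which have differences as large as the called genes but are not called in this fit.

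The largest called differences were genes that were nearly silent in guide 1 cells and expressed with both guides. JAM3 (junctional adhesion molecule 3, an immunoglobulin-family protein of cell contacts, chromosome 11, 134068925 to 134152001) had 0.115, 0.0760 and 0.111 CPM in guide 1 and 6.0, 7.02 and 6.72 CPM with both guides. Its log2 fold change was 6.02 (SE 0.308, edgeR adjusted p 7.67e-07). The other 9 libraries had 0.942 to 6.15 CPM of JAM3, so guide 1 lay below all of them. C9orf64 (named QNG1 in RefSeq, an enzyme that salvages the modified base queuine, chromosome 9, 83938311 to 83956986) had 0.0191, 0.0380 and 0.0158 CPM in guide 1, at or under the floor, and 2.38, 2.58 and 3.06 CPM with both guides. Its log2 fold change was 6.59 (SE 0.350, edgeR adjusted p 7.67e-07). Guide 2 cells were also low for C9orf64, at 0.126, 0.0906 and 0.0578 CPM, while empty-vector cells had 2.38, 2.36 and 2.91 CPM.

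NUDT11, on chromosome X from 51490011 to 51496596, encodes a hydrolase of inositol pyrophosphates. It had a single count over the guide 1 libraries and 350 counts over those with both guides, at 1.89, 2.83 and 1.86 CPM. The ratio of pooled CPM was 430 (95% exact Clopper-Pearson interval 76.7 to 17039), with an edgeR adjusted p of 0.000571. NUDT11 has a near-identical neighbour, NUDT10, so the share of reads that a counting program could place is uncertain. It met the rule for a gene silent in one group, with under 3 counts in each guide 1 library and at least 1 CPM in each library with both guides. SCEL, ZNF711, TSPAN18 and RNASE7 met it too. They were not called with all 15 libraries (edgeR adjusted p 0.300, 0.0995, 0.219 and 0.208) and were called without guide 2 replicate 2 (0.0200, 0.00193, 0.00253 and 0.00926). No gene met the rule in the other direction.

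The other 18 called genes, 11 higher and 7 lower, averaged under 1 CPM over the 15 libraries. Some of these, named after their values were seen, also lay near the floor in guide 1. RNF144A, a ubiquitin ligase gene on chromosome 2 (6917392 to 7068286), had no count in any guide 1 library and 1.32, 0.820 and 0.840 CPM with both guides, at least 21.0-fold above the floor of 3 counts per library (edgeR adjusted p 0.0115). The other 9 libraries had 0.0362 to 0.456 CPM, so guide 1 lay below and both guides above every other genotype. Of the 48 called genes it was the single one with both groups outside that range. CMPK2, a mitochondrial nucleotide kinase gene induced by interferon, lies next to it on chromosome 2 (6840570 to 6866635). It had 0.440, 0.203 and 0.396 CPM in guide 1 and 1.11, 1.19 and 1.32 CPM with both guides (log2 fold change 1.81, SE 0.311, edgeR adjusted p 0.0384), again above the other 9 libraries. NAP1L5 had 2 counts over the guide 1 libraries and 179 with both guides, a pooled ratio of 110 (95% interval 30.0 to 915). SNAP25, a synaptic vesicle fusion protein, had 2 and 62 counts, a ratio of 38.1 (95% interval 10.1 to 322). MGAT4C was at 0.520, 0.927 and 0.483 CPM with both guides and at no more than 0.0380 CPM in each of the other 12 libraries.

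**Figure D2:**
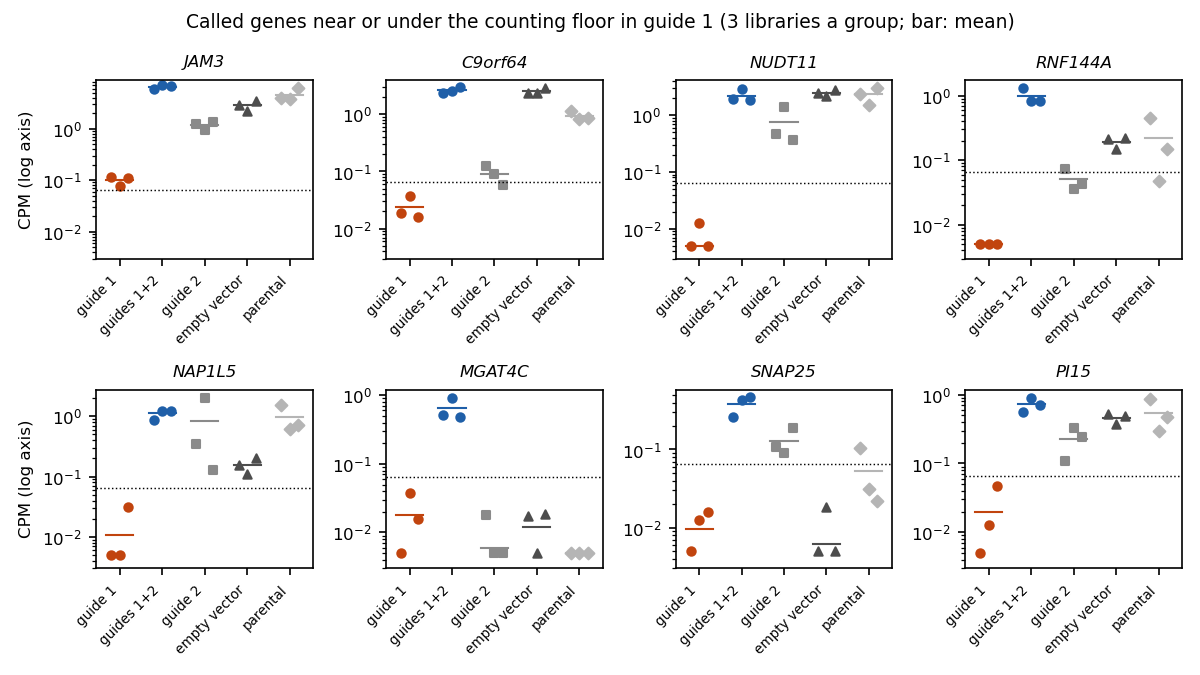
CPM of 8 called genes in each of the 15 libraries on a log axis, 3 points a genotype with a bar at their mean; libraries with no count are drawn near the bottom of the panel. The dotted line is the highest floor of 3 counts among the libraries (0.0650 CPM); the guide 1 libraries lie below it in every panel but that of JAM3 (0.0760 to 0.115 CPM), while the libraries with both guides lie above it.

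The RefSeq promoter table (GRCh38.p14) held 6 of the genes near the floor in guide 1: NUDT11, RNF144A, C9orf64, FEZ1, NAP1L5 and MGAT4C. For 3 of them, chosen after the counts were seen to show the range, the 250 bases before the 5′-most start of the table are printed 5′ to 3′ on the gene's strand with every CG in capitals. NUDT11 lies at chrX:51496593-51496842 (minus strand), RNF144A at chr2:6917162-6917411 (plus strand) and MGAT4C at chr12:86839001-86839250 (minus strand). Against the GENCODE 29 spans, 4 bases of the NUDT11 window, 20 of the RNF144A window and 0 of the MGAT4C window lie inside the gene.
NUDT11: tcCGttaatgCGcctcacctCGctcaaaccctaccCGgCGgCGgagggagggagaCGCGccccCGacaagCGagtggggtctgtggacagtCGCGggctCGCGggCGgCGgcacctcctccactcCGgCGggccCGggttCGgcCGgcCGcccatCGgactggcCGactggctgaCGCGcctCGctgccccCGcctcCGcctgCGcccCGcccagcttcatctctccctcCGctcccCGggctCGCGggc
RNF144A: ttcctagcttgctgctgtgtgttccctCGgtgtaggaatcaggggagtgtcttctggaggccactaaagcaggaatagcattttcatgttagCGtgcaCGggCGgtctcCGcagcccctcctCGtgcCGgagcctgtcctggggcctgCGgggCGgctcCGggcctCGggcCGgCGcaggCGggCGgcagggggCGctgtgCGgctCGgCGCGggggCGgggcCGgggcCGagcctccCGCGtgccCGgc
MGAT4C: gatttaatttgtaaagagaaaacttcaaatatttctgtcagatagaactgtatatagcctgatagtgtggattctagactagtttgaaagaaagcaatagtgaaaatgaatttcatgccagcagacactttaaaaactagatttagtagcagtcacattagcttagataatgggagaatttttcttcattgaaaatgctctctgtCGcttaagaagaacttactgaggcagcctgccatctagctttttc
The NUDT11 window holds 35 CG, the RNF144A window 26 and the MGAT4C window 1. The other 3 genes had 23 (C9orf64), 22 (FEZ1) and 16 (NAP1L5). Among 35116 promoters of the table the median was 11 CG and 93.9% held at least 1. At least as many as NUDT11 were held by 5.8% and at least as many as RNF144A by 19.6%, while 14.7% held no more than MGAT4C. For the 11842 tested genes found in the table the median was 20, and for the 35 of 48 called genes found there it was 21. These counts describe letters in a window and no methylation was measured.

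Of the other genes called higher, PLEKHA7, an adaptor of adherens junctions, had 35.2, 37.8 and 31.8 CPM in guide 1 and 53.5, 53.8 and 54.2 CPM with both guides (log2 fold change 0.61, SE 0.110, edgeR adjusted p 0.0409), above every other library of the series. CDCP1, a transmembrane substrate of SRC kinases, had 113, 99.3 and 125 CPM against 188, 190 and 201 CPM (log2 fold change 0.77). AMIGO2, a leucine-rich repeat adhesion protein, had 86.5, 76.1 and 75.8 CPM against 120, 122 and 113 CPM (0.56). SDCBP2 (syntenin 2, a PDZ scaffold protein) had 1.17, 1.15 and 1.28 CPM against 6.26, 6.88 and 6.81 CPM (2.46, SE 0.321, edgeR adjusted p 0.0106). These 4 genes were separated without overlap, and SDCBP2 and CDCP1 were higher still in empty-vector cells (17.0 to 23.3 and 206 to 283 CPM).

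CHRNA9, a nicotinic acetylcholine receptor subunit, had 7.26, 5.43 and 4.92 CPM in guide 1 and 13.5, 14.8 and 13.1 CPM with both guides (log2 fold change 1.22). GABRA2, a GABA receptor subunit, had 0.996, 1.03 and 1.34 against 3.97, 5.15 and 4.02 CPM (1.95). P2RX4, an ATP-gated channel, had 1.67, 1.58 and 1.60 against 3.17, 2.73 and 3.15 CPM (0.89). SLC2A6, a sugar transporter, had 0.517, 0.393 and 0.411 against 2.54, 2.76 and 2.54 CPM (2.56, SE 0.359, edgeR adjusted p 0.0127), with guide 1 below all 9 other libraries. None of these 4 genes overlapped between the groups, and their folds reached 5.89 for SLC2A6.

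DKK3 and COL6A2 encode a secreted and a matrix protein. DKK3, a dickkopf family glycoprotein, had 0.670, 0.595 and 0.316 CPM in guide 1 and 2.90, 2.83 and 2.61 CPM with both guides (log2 fold change 2.38, SE 0.306, edgeR adjusted p 0.0106). It passed in 21 of 22 other settings. COL6A2, a collagen VI chain, had 0.708, 0.696 and 0.918 against 3.10, 2.55 and 2.56 CPM (1.81, SE 0.260, edgeR adjusted p 0.0145). Both genes were higher with both guides than in any of the other 9 libraries.

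Another 8 genes called higher with an average of at least 1 CPM have varied roles. IQGAP2, a scaffold with a RAS GAP-like domain, had 1.17, 1.32 and 1.30 CPM in guide 1 and 4.90, 4.74 and 4.02 CPM with both guides (log2 fold change 1.84). RAB15, a small GTPase of endosomes, had 1.19, 1.11 and 2.12 against 3.97, 4.28 and 4.0 CPM (1.46). CCDC120, a coiled-coil protein, had 2.09, 2.29 and 2.60 against 8.56, 8.09 and 8.44 CPM (1.83). LINC01819, a long noncoding RNA, had 0.881, 1.19 and 1.08 against 6.29, 6.29 and 6.15 CPM (2.55). Guide 1 was below every other library of the series for RAB15, CCDC120 and LINC01819, and for DBNDD1 (log2 fold change 1.16). The most abundant of the 8 was S100A16, a calcium-binding protein, with 426, 411 and 383 against 570, 568 and 626 CPM (0.52). PLEK2, a pleckstrin protein of the actin cytoskeleton, had a log2 fold change of 0.74 and CDCA4, a cell cycle regulated nuclear protein, one of 0.49. In CDCA4 the cells with both guides (85.1, 89.6 and 91.5 CPM) were above all other libraries.

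Of the 15 genes called lower, 8 had an average of at least 1 CPM. DNAH11, a heavy chain of the dynein motor of cilia, had 17.8, 19.0 and 8.66 CPM in guide 1 and 1.86, 1.91 and 1.86 CPM with both guides (log2 fold change -3.03, SE 0.456, edgeR adjusted p 0.0169). The other 9 libraries had 1.20 to 5.25 CPM, so guide 1 stood above them and both guides within their range. RNF150, a RING finger protein, had 8.18, 8.84 and 5.10 against 1.47, 1.05 and 1.39 CPM (-2.51). MARCHF4, a membrane ubiquitin ligase, had 7.47, 7.15 and 7.44 against 2.58, 2.48 and 2.81 CPM (-1.50, SE 0.235, edgeR adjusted p 0.0224). For MARCHF4 the cells with both guides were below all other libraries, and the same held for ZNF737, a zinc finger protein (2.51, 2.66 and 1.36 against 0.672, 0.481 and 0.697 CPM, -1.83), and EMC10, a subunit of the complex that inserts proteins into the endoplasmic reticulum membrane (78.6, 78.4 and 65.7 against 53.8, 55.6 and 57.5 CPM, -0.43). SH3TC2, an endosomal recycling protein, had 40.6, 39.1 and 35.7 against 28.6, 28.1 and 28.8 CPM (-0.44). GGT4P, annotated as a pseudogene of the gamma-glutamyltransferase family, had a log2 fold change of -1.41, which is uncertain because its reads may come from related copies. Below that level, LUM (lumican, a proteoglycan of collagen fibrils) had 1.26, 1.54 and 1.08 against 0.173, 0.0891 and 0.232 CPM (-2.97, SE 0.538, edgeR adjusted p 0.0415). The gene with the largest fall, CRISP3, named after its values were seen, had 1.51, 1.61 and 0.459 against 0.0434, 0.0713 and 0.0179 CPM (-4.70).

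Set against the other genotypes, the called genes differed in which group stood apart. Of the 33 genes called higher, guide 1 lay below all 9 other libraries in 15 and both guides above them in 8, with RNF144A in both counts, and 11 had neither group outside. Of the 15 called lower, guide 1 lay above the 9 other libraries in 5, both guides lay below in 6, and 4 had neither.

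To describe pathways, 27 lists with 451 genes were read, of which 414 were tested. The lists and the comparison were chosen with earlier results of these data known, so they are described by counts and medians without a test of their own. Of the 414 genes, 6 were called, among them NF1, JAM3 and CMPK2 from the lists of RAS brakes, adhesion and interferon response, and COL6A2 and LUM from the matrix list. Without guide 2 replicate 2, 55 were called, when 813 of 17849 genes (4.55%) were called over the whole table. The counts were 56 without guide 1 replicate 3, when 4.61% of all genes were called, and 95 with the 6 libraries alone, when 7.67% were called (4.03% higher and 3.65% lower). Over all tested genes, 14.5% had the 3 libraries with both guides wholly above those of guide 1 and 14.1% wholly below. Those shares are the background for each list. For members at an unadjusted p under 0.05 the background is 2270 of 17457 genes. DESeq2 called 2.34% of 16409 genes (1.29% higher and 1.05% lower). Without guide 2 replicate 2, edgeR called 2.31% of all genes higher and 2.25% lower. The 55 genes were called in 3 or more of up to 22 settings other than the main fit (median 4). Those settings include the fit that selected the genes, so that call was fixed in advance. The highest adjusted p of these genes over the settings ran from 2.78e-05 to 0.865. In each list the called members, or where there were none the members with the highest and lowest log2 fold change, were named by rule, and the other members described were chosen after their values were seen.

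**Figure D3:**
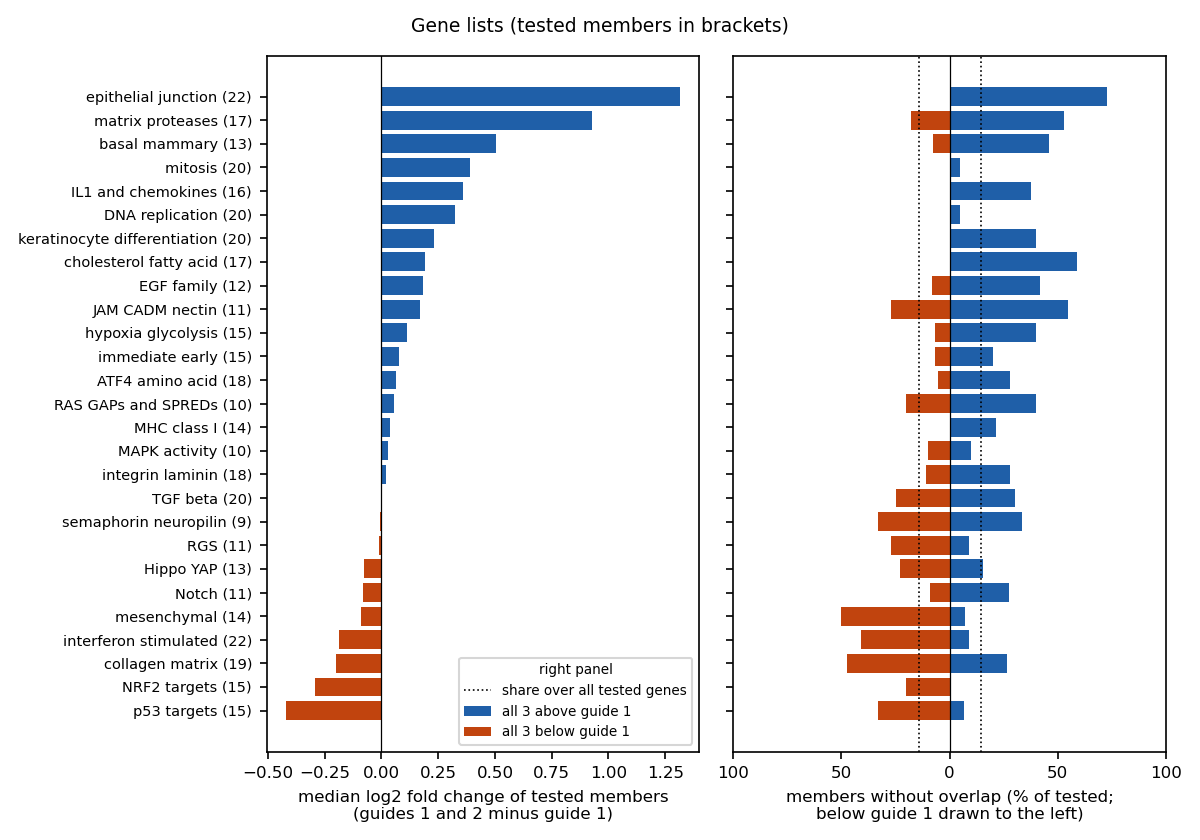
For 27 gene lists, the left panel gives the median log2 fold change of tested members (guides 1 and 2 minus guide 1, genes with no count in 1 group at their bound) and the right panel the percentage of members whose 3 libraries lie wholly above (blue) or below (orange, drawn to the left) guide 1. Dotted lines are the shares over all tested genes (14.5% above and 14.1% below); epithelial junction genes have a median of 1.31 with 16 of 22 members above.

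The list of epithelial junction genes had the highest share of members above guide 1 among the 27 lists. Of its 24 genes, 22 were tested, 16 lay above guide 1 without overlap (background 14.5%), 0 lay below (background 14.1%), and the median log2 fold change was 1.31, against -0.0033 over all genes. By edgeR with 15 libraries 0 of the 22 were called, 9 had an unadjusted p under 0.05, and DESeq2 called 2 of them when it called 2.34% of 16409 genes. Without guide 2 replicate 2, 10 were called, all higher (2.31% of all genes were called higher), and with the 6 libraries alone 12 were called higher (4.03%). CDH1, on chromosome 16 from 68737225 to 68835548, had 23.4, 17.3 and 14.8 CPM with both guides, against 0.0191, 0.152 and 0.158 CPM in guide 1. The log2 fold change was 7.27 (SE 2.36, edgeR adjusted p 0.257) with all libraries and 7.26 (SE 1.17, edgeR adjusted p 0.00467) without guide 2 replicate 2. Over the 21 settings that gave a value its adjusted p ran from 2.38e-05 to 0.758. Guide 2 replicates 1 and 3 were as low as guide 1, at 0.0361 and 0.0434 CPM, guide 2 replicate 2 had 91.4 CPM, the empty vector 44.1 to 127 CPM and the parental libraries 42.9, 1.79 and 37.8 CPM. The cells with both guides were thus far above guide 1 and below every empty-vector library.

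Other members followed CDH1 in the libraries. ESRP1, the splicing regulator of epithelial cells, had 0.0574, 0.0760 and 0.127 CPM in guide 1 and 13.7, 11.98 and 9.06 CPM with both guides (log2 fold change 7.0, edgeR adjusted p 0.282, and 0.00814 without guide 2 replicate 2). The desmosomal cadherin DSG3 had 0.421, 0.342 and 0.491 against 23.1, 19.985 and 12.995 CPM (5.47, edgeR adjusted p 0.267 and 0.00266). DSC3, its desmocollin partner, had 0.479, 0.481 and 2.85 against 38.2, 32.5 and 28.7 CPM (4.70, edgeR adjusted p 0.282 and 0.000661). DSC2 had 1.07, 0.684 and 2.07 against 20.2, 18.1 and 15.3 CPM (3.80, edgeR adjusted p 0.217 and 0.00142). Smaller differences than in CDH1 were seen in DSP, the desmosome's plaque protein, with 112, 121 and 139 against 336, 304 and 275 CPM (1.29), in CDH3 (P-cadherin, 1.66), in MARVELD2 (tricellulin, 2.38) and in DSG2 (0.52). These genes, together with CDH1 and OVOL2, a repressor of mesenchymal genes, were the 10 called without guide 2 replicate 2. EPCAM, at 2.39, 2.15 and 1.85 against 3.32, 3.21 and 2.84 CPM, and the tight junction genes CLDN1, CLDN7 and TJP1 had log2 fold changes of 0.54, 0.67, 0.25 and 0.11 and were called in neither fit. As a mean over the list, guide 1 had 0.62, 0.65 and 0.73 log2 CPM, both guides 2.87, 2.68 and 2.54, guide 2 replicates 1 and 3 0.44 each and guide 2 replicate 2 4.51.

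**Figure D4:**
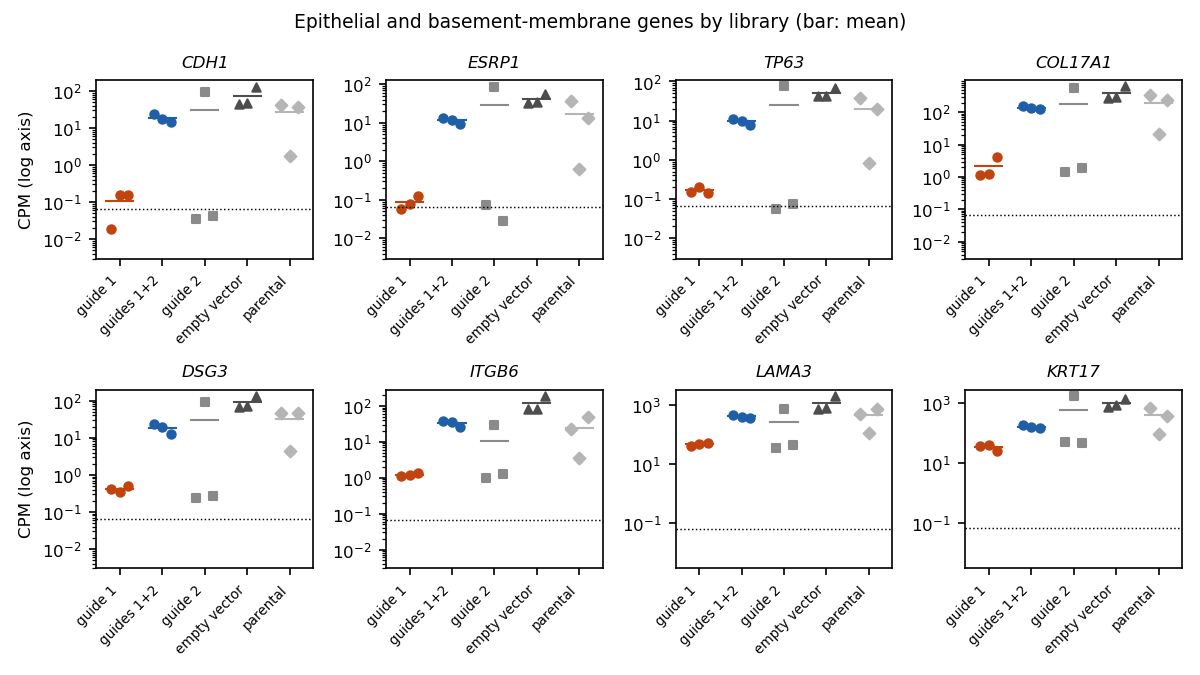
CPM of 8 epithelial and basement-membrane genes in the 15 libraries on a log axis, with a bar at each genotype's mean and a dotted line at the highest floor of 3 counts. In each panel the 3 libraries with both guides lie above the 3 of guide 1; guide 2 replicate 2 is the high square and parental replicate 2 the low diamond of its genotype.

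TP63, of the basal mammary list, had 10.99, 9.97 and 7.83 CPM with both guides against 0.153, 0.203 and 0.142 CPM in guide 1 (log2 fold change 5.80, edgeR adjusted p 0.304, and 0.0106 without guide 2 replicate 2). Of 15 basal mammary genes 13 were tested, 6 lay above guide 1 (background 14.5%) and 1 below (background 14.1%). The median log2 fold change was 0.50. By edgeR 0 were called, with 2 at an unadjusted p under 0.05 and 1 by DESeq2. Without guide 2 replicate 2, TP63, KRT17 and KRT6A were the 3 called, all higher (2.31% of all genes). KRT17, a basal keratin, had 35.9, 37.6 and 24.1 against 181, 159 and 139 CPM (2.28). KRT6A had 309, 324 and 372 against 979, 917 and 902 CPM (1.47). KRT5 overlapped between the groups (870, 1001 and 625 against 1125, 1025 and 985 CPM) and the simple keratin KRT7 had a log2 fold change of -0.02. MME (the peptidase CD10) had the lowest, with 80.7, 88.2 and 51.7 against 49.9, 49.8 and 43.5 CPM (-0.64). The keratins thus did not move as a block.

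Laminin-332 and the hemidesmosome, which anchor basal cells to the basement membrane, were measured in the list of integrins and laminins and in that of collagens. LAMA3, the laminin alpha 3 chain, had 42.1, 47.0 and 50.3 CPM in guide 1 and 468, 400 and 357 CPM with both guides (log2 fold change 3.12, edgeR adjusted p 0.256, and 0.00596 without guide 2 replicate 2). The beta 3 chain gene LAMB3 overlapped between the groups (0.12). ITGB6, the epithelial beta 6 integrin, had 1.11, 1.22 and 1.31 against 38.2, 34.9 and 25.8 CPM (4.75, edgeR adjusted p 0.166 and 0.00391). COL17A1, the collagen of hemidesmosomes, had 1.13, 1.25 and 4.05 against 156, 136 and 126 CPM (6.01, edgeR adjusted p 0.238 and 0.00247). ITGB4, the hemidesmosome integrin chain, had 694, 832 and 373 against 533, 480 and 474 CPM and overlapped. Of the 18 integrin and laminin genes, all tested, 5 lay above guide 1 (background 14.5%) and 2 below (background 14.1%). By edgeR 0 of them were called, with 3 at an unadjusted p under 0.05 and 3 by DESeq2 (2.34% of all genes). Without guide 2 replicate 2, 3 were called higher (2.31% of all genes), among them ITGB6 and LAMA3. Over all settings the adjusted p ran from 7.99e-06 to 0.616 for ITGB6 and from 7.99e-06 to 0.742 for LAMA3.

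Genes of keratinocyte differentiation were low in both groups. Of 24, 20 were tested, 8 lay above guide 1 (background 14.5%) and 0 below (background 14.1%). The median log2 fold change was 1.83. That median rests on 9 genes with no count in the 3 guide 1 libraries. With each of these at its bound against a floor of 3 counts per library the median was 0.23. SPRR1B, the highest by fitted fold change, had no count in guide 1 and 24, 11 and 14 counts with both guides, and KRT10, the lowest, had a log2 fold change of -0.08. The alarmin S100A9 had 0.230, 0.355 and 0.332 CPM in guide 1 and 5.81, 4.33 and 3.75 CPM with both guides (log2 fold change 3.88, edgeR adjusted p 0.267, and 0.00396 without guide 2 replicate 2). S100A8, its partner, had 0.249, 0.127 and 0.142 against 2.30, 2.41 and 1.68 CPM (3.63, edgeR adjusted p 0.241 and 0.00247). TGM1, the crosslinking enzyme of the cornified envelope, had 3.33, 2.94 and 3.28 against 7.37, 5.94 and 6.74 CPM (1.06). Those 3 were the members called without guide 2 replicate 2. With all libraries edgeR called 0 (3 at an unadjusted p under 0.05, against 2270 of all 17457 genes). DESeq2 called 5, all higher, when it called 1.29% of all genes higher.

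Among JAM, CADM and nectin adhesion genes, 11 of 14 were tested and JAM3 was called. Of the 11, 6 lay above guide 1 (background 14.5%) and 3 below (background 14.1%). F11R, which encodes JAM-A of epithelial tight junctions, had 13.996, 15.2 and 12.3 CPM in guide 1 and 34.2, 32.5 and 29.5 CPM with both guides (log2 fold change 1.20, edgeR adjusted p 0.416, and 0.0311 without guide 2 replicate 2). CADM3, another immunoglobulin-family adhesion gene, was the abundant member in the other direction, with 769, 827 and 564 against 394, 401 and 399 CPM (-0.87, edgeR adjusted p 0.418 and 0.0374). JAM3 differed from F11R in 1 library outside the comparison: guide 2 replicate 2 had 65.2 CPM of F11R and 0.942 CPM of JAM3. High JAM3 therefore did not go with high epithelial genes in that library.

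Mesenchymal and matrix genes were measured next. Of 15 mesenchymal genes 14 were tested, 7 lay below guide 1 (background 14.1%) and 1 above (background 14.5%). The median log2 fold change was -0.09. FN1 (fibronectin) had 16553, 18543 and 12621 CPM in guide 1 and 9441, 9645 and 9263 CPM with both guides (log2 fold change -0.76, edgeR adjusted p 0.432, and 0.0262 without guide 2 replicate 2). FBN1 (fibrillin 1) had 337, 359 and 271 against 193, 201 and 183 CPM (-0.76, edgeR adjusted p 0.444 and 0.0235). MMP2, a gelatinase, had the lowest log2 fold change of the list, with 91.9, 93.8 and 61.4 against 38.6, 41.2 and 44.2 CPM (-1.01, edgeR adjusted p 0.501 and 0.0897), and CDH11 the highest, at 0.0158 to 0.173 CPM (0.99, edgeR adjusted p 0.662). VIM (vimentin), with 1947, 1954 and 2051 against 1803, 1749 and 1834 CPM, had a log2 fold change of -0.16. CDH2 (N-cadherin), SNAI2 and TWIST1 overlapped, with -0.00, 0.06 and -0.03. The mesenchymal list held 0 genes called by edgeR (1 at an unadjusted p under 0.05, 0 by DESeq2). Without guide 2 replicate 2, 2 were called lower, FN1 and FBN1, when 2.25% of all genes were called lower. The large epithelial differences were thus not mirrored by differences of like size in VIM or CDH2.

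In the list of collagens and matrix genes 19 of 21 were tested, and COL6A2 was called higher and LUM lower. Of the 19, 5 lay above guide 1 (background 14.5%) and 9 below (background 14.1%). DCN (decorin, a small proteoglycan) had 965, 1095 and 432 CPM in guide 1 and 245, 251 and 227 CPM with both guides (log2 fold change -1.80, edgeR adjusted p 0.214, and 0.00391 without guide 2 replicate 2). LUM and DCN are also markers of fibroblasts. Of 7 fibroblast markers 5 were tested, 2 lay below guide 1 and 0 above; their summed level was 437 to 1105 CPM in guide 1 and 232 to 257 CPM with both guides, most of it DCN. The defining markers COL3A1 and PDGFRA were at 0 to 0.0535 and 0.0475 to 0.152 CPM in the 6 libraries, and endothelial markers summed to 6.52 to 13.4 against 6.36 to 7.31 CPM. Luminal markers summed to 279 to 315 CPM in guide 1 and 363 to 383 CPM with both guides, with ELF5 at 0, and immune markers to 3.28 to 6.19 against 6.22 to 6.66 CPM, mostly CD14. The immune markers CD3E and MS4A1 had no count in any of the 15 libraries. CDKN2A and CDKN2B, which lie in a region of chromosome 9 that MCF-10A lacks, had no count in any library either, and their neighbour MTAP had 0.0535 to 0.143 CPM in the 6 libraries. In bulk RNA, fewer cells of a type and less RNA per cell cannot be told apart, and the part of other cells in these values was not tested.

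Matrix proteases and their inhibitors were split. All 17 were tested, 9 lay above guide 1 (background 14.5%) and 3 below (background 14.1%). The median log2 fold change was 0.93. That median was 0.63 without guide 1 replicate 3 and 0.23 over the 13 members tested with the 6 libraries alone. PLAU (urokinase) had 35.0, 34.6 and 36.5 CPM in guide 1 and 81.6, 76.9 and 71.4 CPM with both guides (log2 fold change 1.10, edgeR adjusted p 0.180, and 0.0472 without guide 2 replicate 2). ADAMTS1, a secreted metalloprotease, had 21.8, 19.4 and 9.89 against 5.16, 6.19 and 6.18 CPM (-1.56, edgeR adjusted p 0.155 and 0.00416). PLAU and ADAMTS1 thus lay on opposite sides of guide 1. MMP9 had no count in guide 1 and 21, 30 and 22 counts with both guides (edgeR adjusted p 0.265 and 0.121). By edgeR 0 of the 17 were called, with 4 at an unadjusted p under 0.05 and 3 by DESeq2 (2.34% of all genes). Without guide 2 replicate 2 there were 2 called higher (2.31% of all genes) and 2 lower (2.25%).

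In the TGF-beta list 20 of 22 genes were tested, 6 lay above guide 1 (background 14.5%) and 5 below (background 14.1%). The median log2 fold change was 0.00. By edgeR 0 were called, with 6 at an unadjusted p under 0.05 and 2 by DESeq2 (2.34% of all genes). Without guide 2 replicate 2 there were 3 called higher (2.31% of all genes) and 2 lower (2.25%). The higher genes were INHBA (activin A, 0.287, 0.0886 and 0.364 against 2.36, 2.28 and 2.82 CPM), BMP2 (4.42, 4.46 and 3.01 against 6.20, 6.49 and 6.51 CPM) and ID3, a target of BMP signalling (85.2, 79.3 and 88.3 against 99.4, 105.2 and 105.5 CPM). The lower ones included TGFBR3 (betaglycan), with 49.9, 51.1 and 39.9 against 27.8, 28.2 and 23.9 CPM. BMP4 had the lowest log2 fold change, with 7.24, 8.58 and 6.54 against 2.99, 3.07 and 3.70 CPM (-1.21, edgeR adjusted p 0.406 and 0.0647). The ligand genes TGFB1, TGFB2 and TGFB3 were called in neither fit, with -0.10, -0.64 and -0.46.

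Cell cycle genes depended on guide 1 replicate 3. Of 20 mitosis genes, all tested, 19 had a positive log2 fold change and the median was 0.39, but 1 lay above guide 1 without overlap and 0 below. MKI67, the proliferation antigen, had 385, 409 and 735 CPM in guide 1 and 774, 728 and 695 CPM with both guides. The first 2 guide 1 libraries were low and the third was among those with both guides. With all libraries the log2 fold change of MKI67 was 0.51 (edgeR adjusted p 0.325), and without guide 1 replicate 3 it was 0.87 (SE 0.126, edgeR adjusted p 0.00341), with 8.07e-06 to 0.834 over all settings. AURKB, a mitotic kinase, had the highest log2 fold change, with 27.2, 27.7 and 45.4 against 51.1, 50.8 and 53.001 CPM (0.62, edgeR adjusted p 0.217, and 0.00602 without guide 1 replicate 3), and NUSAP1, at under 0.5 CPM, the lowest (-0.02). In the DNA replication list GINS1 (0.51) and MCM6 (0.23) were the highest and the lowest, and the median was 0.33. Without guide 1 replicate 3, 19 of 20 mitosis genes and 15 of 20 DNA replication genes were called higher, when 3.17% of 17942 genes were called higher and 1.44% lower. With it, edgeR called 0 of either list (5 and 3 at an unadjusted p under 0.05) and DESeq2 0. As means over the mitosis list, guide 1 had 6.51, 6.47 and 7.42 log2 CPM and both guides 7.28, 7.24 and 7.20. The empty-vector libraries were also low, at 6.58, 6.65 and 6.92.

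**Figure D5:**
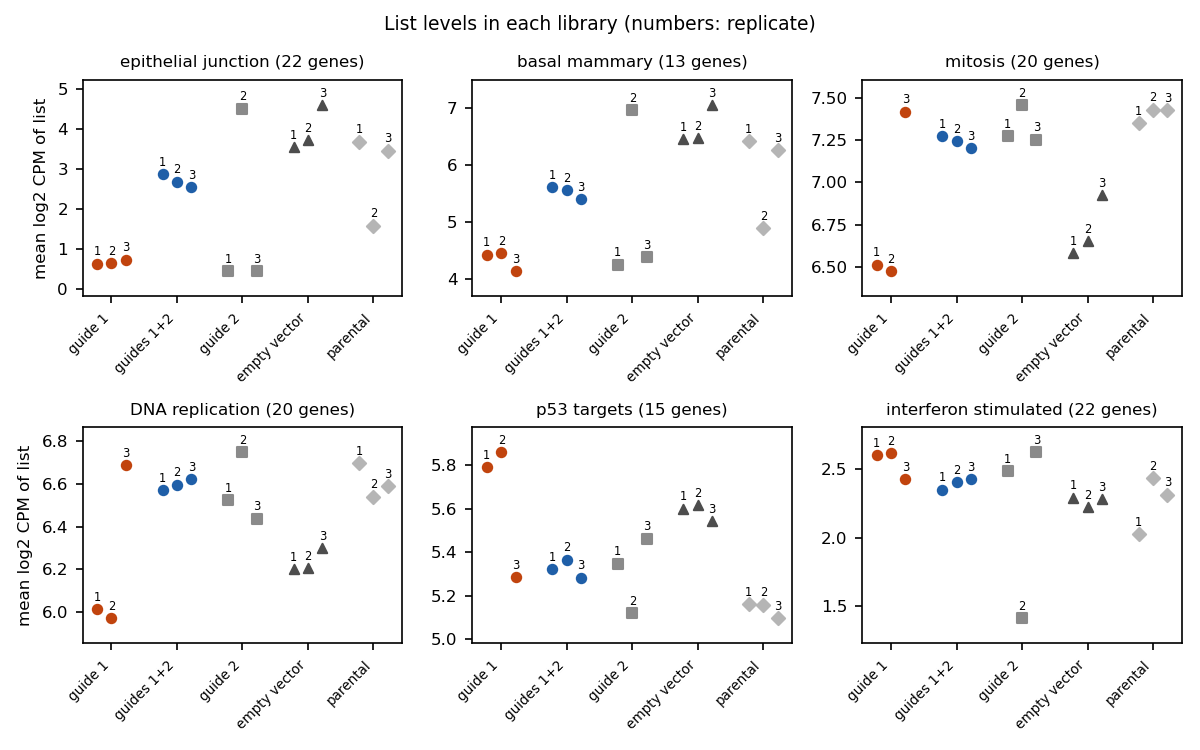
Mean log2 CPM of 6 gene lists in each of the 15 libraries, with the replicate number beside each point. Guide 1 replicate 3 lies with the cells carrying both guides in the mitosis, DNA replication and p53 panels and with the other guide 1 libraries in the epithelial junction panel.

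Of 15 targets of p53, all tested, 14 had a negative log2 fold change and the median was -0.42. Without overlap, 5 lay below guide 1 (background 14.1%) and 1 above (background 14.5%). CDKN1A (p21, an inhibitor of cell cycle kinases) had 325, 327 and 168 CPM in guide 1 and 176, 182 and 186 CPM with both guides. Again the first 2 guide 1 libraries differed from the third. XPC, a DNA damage sensor, had 86.4, 96.9 and 65.1 against 55.3, 52.2 and 53.3 CPM (log2 fold change -0.64, edgeR adjusted p 0.220, and 0.0245 without guide 2 replicate 2). TP53INP1 had 30.7, 32.3 and 12.2 against 14.8, 15.9 and 12.2 CPM, with an edgeR adjusted p of 0.302, and 0.00859 without guide 1 replicate 3. TP53I3 was the highest (0.11). By edgeR 0 were called with all libraries (6 at an unadjusted p under 0.05, 1 by DESeq2), 2 were called lower without guide 2 replicate 2 and 5 lower without guide 1 replicate 3. In the mean of the epithelial list guide 1 replicate 3 (0.73 log2 CPM) lay close to replicates 1 and 2 (0.62 and 0.65), although DSC3 and DSC2 were higher in it. The pattern of libraries in the list means thus differed between these groups of genes.

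Because NF1 acts on RAS, the other RAS brakes and the readouts of ERK were examined. Of 13 RAS GAP and SPRED genes 10 were tested, and NF1 was the called member. Of the 10, 4 lay above guide 1 (background 14.5%) and 2 below including NF1 (background 14.1%). The median log2 fold change was 0.06. RASA1, the p120 RAS GAP, had 59.1, 57.4 and 65.6 CPM in guide 1 and 67.4, 66.4 and 60.9 CPM with both guides and overlapped. DAB2IP, another RAS GAP, was the highest member by log2 fold change, with 16.4, 17.2 and 16.1 against 26.5, 26.7 and 25.6 CPM (0.65, SE 0.438, edgeR adjusted p 0.529). SPRED1 and SPRED2, partners of neurofibromin at the membrane, had log2 fold changes of 0.07 each.

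The 10 transcripts that report MAPK activity were all tested and none was called by edgeR (0 at an unadjusted p under 0.05) or by DESeq2. Their median log2 fold change was 0.03, with 1 above and 1 below guide 1 without overlap. DUSP6, the ERK phosphatase induced by ERK itself, had 40.1, 35.6 and 22.2 CPM in guide 1 and 44.2, 42.6 and 41.1 CPM with both guides (log2 fold change 0.37, SE 0.307, edgeR adjusted p 0.605). EPHA4, an ephrin receptor, was the lowest, with 9.40, 9.38 and 7.12 against 5.66, 5.46 and 5.65 CPM (-0.64, SE 0.454, edgeR adjusted p 0.552). SPRY2 and SPRY4, feedback inhibitors of the pathway, had 0.05 and -0.05. With the 6 libraries alone EPHA4 was called lower (-0.64, edgeR adjusted p 0.0239), when 3.65% of all genes were. With 3 libraries a side the standard errors of the 2 extreme members, 0.307 and 0.454, do not exclude modest ones.

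Of 13 genes for EGF receptors and their ligands 12 were tested, 5 lay above guide 1 (background 14.5%) and 1 below (background 14.1%). AREG (amphiregulin) had 254, 227 and 241 CPM in guide 1 and 357, 366 and 408 CPM with both guides (log2 fold change 0.64, edgeR adjusted p 0.358, and 0.00434 without guide 2 replicate 2). TGFA, another ligand of the EGF receptor, had 7.03, 7.13 and 8.45 against 27.1, 25.2 and 24.7 CPM (1.75, edgeR adjusted p 0.394 and 0.0223). Those 2 were the members called without that library, when 2.31% of all genes were called higher. With it edgeR and DESeq2 called 0 (1 at an unadjusted p under 0.05). EGFR had 384, 383 and 393 against 449, 438 and 404 CPM (0.14), and EPGN had the lowest log2 fold change (-0.25). In the list of immediate early genes, all 15 tested, 3 lay above and 1 below guide 1 and 0 were called by edgeR or DESeq2 (2 at an unadjusted p under 0.05). EGR1, an early target of ERK, had 213, 225 and 40.5 against 113, 101 and 105 CPM and overlapped, with guide 1 replicate 3 below the libraries with both guides. KLF2 had the highest log2 fold change of that list (0.55, edgeR adjusted p 0.590) and EGR2 the lowest (-1.09, edgeR adjusted p 0.590).

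Of 18 genes of cholesterol and fatty acid synthesis 17 were tested, 10 lay above guide 1 (background 14.5%) and 0 below (background 14.1%). The median log2 fold change was 0.19. By edgeR 1 was called, when 0.275% of all genes were. FASN, the fatty acid synthase, had 459, 481 and 491 CPM in guide 1 and 567, 576 and 581 CPM with both guides (log2 fold change 0.26, edgeR adjusted p 0.150, and 0.0241 without guide 2 replicate 2). SQLE (0.27) and HMGCS1 (0.41) were called in that fit too. It called 5 members in all, all higher, when 2.31% of all genes were called higher. DESeq2 with all libraries called 5, all higher, when it called 1.29% of all genes higher. SQLE was lower in guide 1 than in every other library of the series.

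Other metabolic and stress lists had 0 members called by edgeR with all libraries. Among 18 amino acid stress genes driven by ATF4, all tested, 5 lay above guide 1 (background 14.5%) and 1 below (background 14.1%). TRIB3 had 15.8, 15.2 and 16.3 CPM in guide 1 and 25.1, 26.8 and 24.6 CPM with both guides (log2 fold change 0.68, edgeR adjusted p 0.386, and 0.0235 without guide 2 replicate 2), and ASNS had the lowest log2 fold change (-0.45). Of 16 hypoxia and glycolysis genes 15 were tested, 6 lay above guide 1 (background 14.5%) and 1 below (background 14.1%). HK2 (hexokinase 2, 0.56) and ADM (adrenomedullin, -0.27) were the extremes of that list. Of 15 NRF2 targets, all tested, 12 were negative, 0 lay above and 3 below (background 14.1%), and the median was -0.29. As means over that list, guide 1 had 6.72, 6.60 and 6.23 log2 CPM and both guides 6.28, 6.37 and 6.39. Guide 1 replicate 3 thus lay below each library with both guides, and the negative median depended on replicates 1 and 2. AKR1C2, the lowest by log2 fold change, had 648, 684 and 217 against 340, 376 and 362 CPM (-0.54), and GCLM was the highest (0.26). By edgeR these 3 lists had 0 called genes, with 3, 0 and 0 at an unadjusted p under 0.05, and DESeq2 called 0.

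Of 25 interferon-stimulated genes, 22 were tested and 1 was called (CMPK2, higher). Of the 22, 18 had a negative log2 fold change, and the median over the tested members was -0.19. Without overlap, 9 lay below guide 1 (background 14.1%) and 2 above (background 14.5%). IFIT2, an antiviral RNA-binding protein, had 4.46, 4.93 and 3.47 CPM in guide 1 and 2.15, 2.25 and 2.07 CPM with both guides (log2 fold change -1.0, edgeR adjusted p 0.369, and 0.0218 without guide 2 replicate 2). BST2 (tetherin) had 50.9, 53.2 and 36.3 against 26.2, 24.0 and 24.3 CPM (-0.93, edgeR adjusted p 0.452). CMPK2, called higher like its neighbour RNF144A, had the opposite sign to 18 of the 22. The 14 MHC class I and antigen processing genes, all tested, had 3 above and 0 below guide 1 and a median of 0.04, with PSMB9 highest (0.66) and HLA-E lowest (-0.27). By edgeR and DESeq2 0 were called, and 1 had an unadjusted p under 0.05.

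Among interleukin 1 family and chemokine genes 16 of 24 were tested, 6 lay above guide 1 (background 14.5%) and 0 below (background 14.1%). CXCL5, a neutrophil chemokine, had 5.44, 4.15 and 12.8 CPM in guide 1 and 20.6, 26.9 and 24.2 CPM with both guides (log2 fold change 1.67, edgeR adjusted p 0.0931, and 0.0166 without guide 2 replicate 2). CSF3 (G-CSF) had 12.1, 10.6 and 22.6 against 43.6, 44.1 and 49.8 CPM (1.59, edgeR adjusted p 0.156 and 0.0152). IL24 had 0.632, 0.456 and 0.380 against 1.02, 0.963 and 1.45 CPM (1.22, edgeR adjusted p 0.0911 and 0.0136). These 3 were called without that library, when 2.31% of all genes were called higher. With it edgeR called 0 (3 at an unadjusted p under 0.05) and DESeq2 3, all higher (1.29% of all genes). By log2 fold change the highest member was IL1RN, with 2, 1 and 2 counts in guide 1 and 7, 7 and 3 with both guides, and the lowest was IL1R1 (-0.15). CXCL8, at 61.1, 46.4 and 23.0 against 40.2, 44.7 and 44.7 CPM, overlapped.

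In the lists of Notch, Hippo, semaphorin and RGS genes edgeR and DESeq2 called 0 of 11, 13, 9 and 11 tested members, with 2, 0, 2 and 0 at an unadjusted p under 0.05. JAG1, a Notch ligand, had the highest log2 fold change of its list, with 15.0, 13.3 and 14.1 CPM in guide 1 and 36.8, 33.1 and 31.8 CPM with both guides (1.25, edgeR adjusted p 0.412, and 0.0516 without guide 2 replicate 2). SEMA3A, a secreted guidance cue, had 0.919, 0.620 and 0.934 against 2.88, 2.71 and 2.47 CPM (1.70, edgeR adjusted p 0.287 and 0.0422). ANKRD1, a target of YAP, had 117, 101 and 48.4 against 46.3, 46.0 and 47.0 CPM (-0.95, edgeR adjusted p 0.406). RGS5, an inhibitor of G protein signalling, was the lowest of its list, at 6.57, 5.66 and 5.71 against 3.45, 4.23 and 4.04 CPM (edgeR adjusted p 0.514), and RGS16 the highest (0.36). The other extremes were DLL1 of the Notch list (-0.57), SEMA3C (-0.52) and TEAD4 of the Hippo list (0.28). HES1, a Notch target (0.94), and SEMA3A were the members of these lists called without guide 2 replicate 2.

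By position, the called genes lay on many chromosomes. Chromosome 12 held the most, 7 of 943 tested genes (0.742%, against 0.275% over all genes). The fullest of 270 bins of 10 Mb held 2, but a bin edge can part neighbours. On chromosome 12, ACSS3 and LUM (called lower) and MGAT4C (called higher), seen after the fact, lie from 80936414 to 91111831 across such an edge. Median log2 fold changes by nuclear chromosome other than Y lay between -0.04 for chromosome X and 0.03 for chromosome 18, and 250 of 270 bins were within 0.1 of 0. No chromosome therefore differed as a whole between the lines at the level of these medians. For the 26 mitochondrial genes the median was -0.14, and 0 of them were called.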

How the data were processed

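The authors deposited 1 table of raw read counts per gene and 1 of counts-per-million values (CPM) for 15 RNA-seq libraries of polyadenylated RNA. Per the submitters' processing notes, Trim Galore 0.6.0, STAR 2.7.8a and GRCh38 were used; the counting program, strand setting and annotation are not given in the sources used here. The deposited CPM equalled counts divided by the library total on that scale, so CPM in the text carry no TMM scaling. Log2 fold changes and adjusted p (Benjamini-Hochberg, threshold 0.05) come from edgeR 4.0.16 (R 4.3.3) on the counts: filterByExpr, TMM, a mean for each of 5 genotypes, and a quasi-likelihood test of both guides against guide 1, tested first on simulated data. Alternatives were RLE scaling, no filter, a replicate block, fewer groups, DESeq2 1.42.0, limma 3.58.1 (voom with quality weights), a fold threshold and leaving out each library. Genes were named where called with an average log2 CPM of at least 0, where called and in a list, or where under 3 counts in each library of one group and at least 1 CPM in each of the other. Means ± SD are over 3 libraries; nothing in the labels says more of the replicates than that they are biological. The members and lists were chosen with earlier results of these data known. Positions are from GENCODE 29. No library of the 6 was a repeat of another beyond sampling noise. Of 60721 identifiers 60357 had a symbol. Some genes that the rule names are not reported here.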

Additional observations from a re-analysis of the deposited data

How the results depend on the processing

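The 48 called genes kept their direction in every fit, and the count stayed at 48 with RLE scaling and was 37 with an absolute log2 fold change of at least 1. It was 82 with no filter on low counts, 1252 with the 6 libraries alone, 564 without the guide 2 group, 384 by DESeq2 and 8113 by voom with sample quality weights, and ran from 4 to 827 when 1 library was left out. For genes of the lists the count of 6 became 95, 46, 32 and 247 in the latter 4 settings and ran from 2 to 56 when 1 library was left out. Fewer libraries and fewer groups change the estimated spread by construction; beyond that the cause was not tested. The NF1 log2 fold change ran from -0.82 to -0.71 without 1 library. Deviations of same-numbered libraries of the 2 groups correlated at -0.0572 to 0.00988, and those of libraries with unlike numbers at -0.0476 to 0.0741. These values showed no pairing by replicate number, but with 3 libraries a group they cannot exclude one. With the replicate number as a block 20 genes were called, 4 of them in the lists, and NF1 had a log2 fold change of -0.76 (adjusted p 0.0178). At 0.0380 to 0.0650 CPM for 3 counts, levels under this floor in guide 1, as for C9orf64, NUDT11 and RNF144A, were not measurable.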
